A study of Homo sapiens with 4 samples.

Results

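Transforming growth factor beta (TGF-beta) signalling was followed through the transcripts of 10 genes among the 60721 in the deposited count table. The genes were taken by name, as the ligands TGFB1, TGFB2 and TGFB3, the receptors TGFBR1, TGFBR2 and TGFBR3, and the SMAD proteins SMAD2, SMAD3, SMAD4 and SMAD7. All 10 passed the filter on low counts and were tested. The cells were Hs578T, an established human breast carcinoma line, that had received GFP together with an siRNA against TLN1 (siTLN1) or, in the control group (SCR), an RNA with no intended target, each at 1.6 µM, with collection at 48 h. TLN1 encodes talin-1, which couples integrins to actin filaments. There were 2 libraries per group, which the submitters describe as biological replicas, and both groups carried GFP. Everything below therefore concerns 1 cell line, 1 time point and 1 siRNA label, and shows RNA rather than protein or ligand activity.

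TGF-beta ligands are secreted as latent complexes in which the propeptide shields the growth factor, and latent TGF-beta binding proteins tether the complex to the matrix until integrins or proteases free it. The active ligand binds the type II receptor TGFBR2, which phosphorylates the type I receptor TGFBR1, while TGFBR3 (betaglycan) presents ligand, TGFB2 above all, to TGFBR2. TGFBR1 then phosphorylates SMAD2 and SMAD3, these join SMAD4 and act on genes in the nucleus, and SMAD7, itself a target of the pathway, blocks the receptor. In mesenchymal carcinoma cells the pathway is known for its part in matrix production and in the loss of epithelial traits.

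The libraries held 31854322 and 34794346 counts for SCR and 36987264 and 46353297 for siTLN1. In each group the libraries are called a and b here, after numbers in the table header that recur in both groups and whose meaning is not given in the sources used here. TLN1 stood at 868 and 874 CPM (counts relative to the scaled library size) in SCR and 51.9 and 44.8 CPM in siTLN1, which checks the labels. The labels name epithelial cells, but EPCAM was at 0 to 0.143 CPM, GRHL2 was at 0 in all 4 libraries, and 4 of 12 epithelial markers averaged at least 1 CPM against 10 of 10 mesenchymal ones. The keratin genes KRT18, at 104 to 131 CPM, and KRT8, at 15.1 to 20.7 CPM, made up most of the epithelial sum of 132.7 to 163.7 CPM. Mesenchymal markers summed to 33530 to 36410 CPM in SCR and 35330 to 40850 CPM in siTLN1. FN1 made up most of these sums, at 23600 to 26300 CPM in SCR and 27000 to 32400 CPM in siTLN1. Leukocyte markers summed to 1.32 to 1.82 CPM and endothelial markers to 5.17 to 6.36 CPM over the 4 libraries. Of the mesenchymal markers, CDH2 and SPARC had an adjusted p under 0.05, both lower in siTLN1.

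Levels of different genes were compared per kilobase of annotated exon. In SCR the order ran from TGFBR2 at 48.2 ± 2.82 CPM per kb (SD, n = 2) and TGFB1 at 47.2 ± 8.28 CPM per kb (SD, n = 2), whose libraries overlapped, through TGFB2 at 30 ± 0.835 CPM per kb (SD, n = 2) to SMAD3 at 17.1 ± 0.0528 CPM per kb (SD, n = 2). SMAD7 followed at 12.7, TGFBR1 at 7.40, SMAD4 at 3.23, SMAD2 at 2.77 and TGFBR3 at 1.94 CPM per kb, and TGFB3 was last at 0.536 ± 0.0476 CPM per kb (SD, n = 2). From TGFB1 downwards, the libraries of each gene lay above those of the next. In siTLN1 the order was the same except that TGFB1 (43.3 CPM per kb) and TGFBR2 (41.7 CPM per kb) changed places, again with overlapping libraries. The annotated exons of SMAD2 span 36426 bases, mostly a 3′ UTR of 32870 bases in the transcript with the longest coding sequence. Its level per kilobase depends on that annotation more than the others do.

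**Figure D1:**
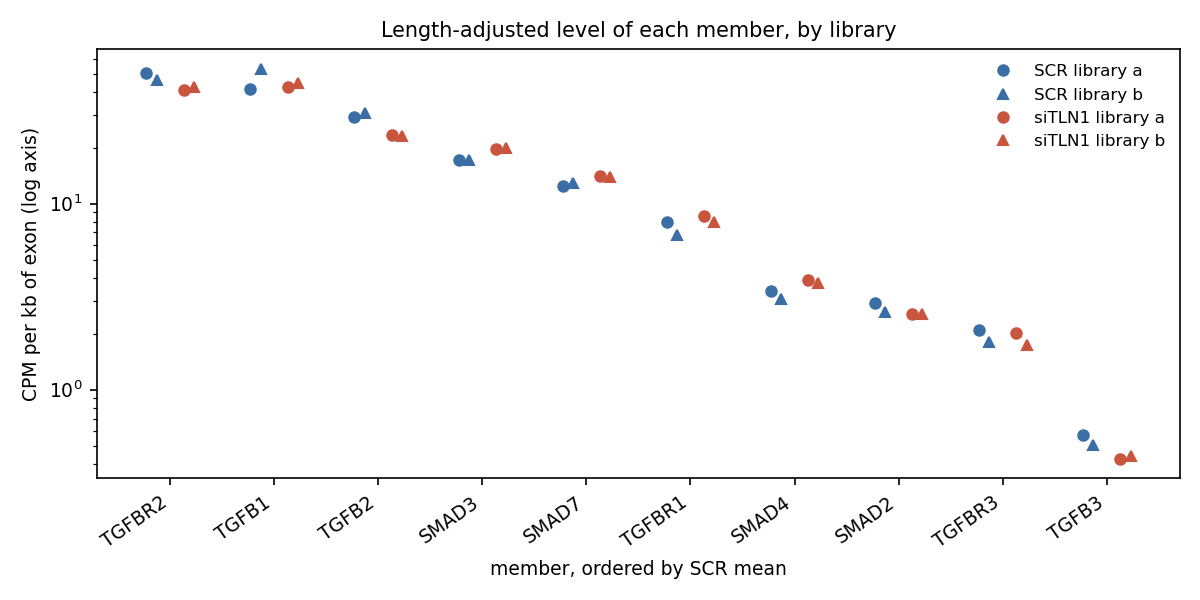
Level of each gene in CPM per kilobase of exon (vertical log axis) in the 4 libraries, with genes ordered by the SCR mean. The SCR means run from 48.2 for TGFBR2 to 0.536 for TGFB3, and in both groups only the top pair has overlapping libraries.

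The comparison of siTLN1 with SCR called 1 of the 10 genes, TGFB2, at an adjusted p under 0.05. Over all 16137 tested genes the same rule called 6.07%, with 2.3% higher and 3.77% lower, so 1 of 10 is close to the background. At an unadjusted p under 0.05 there were 4 genes (TGFB2, TGFBR2, SMAD3 and SMAD4), against 19.8% of all genes. The libraries of the groups did not overlap for 7 of the 10 genes, 4 lower and 3 higher in siTLN1, and for 48.4% of all genes. The median log2 fold change was −0.08 over the 10 genes and 0.0033 over all tested genes, and the median size without sign was 0.18 against 0.16. Without SCR library a the median of the 10 genes was 0.015.

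Among the ligands, TGFB2 (ENSG00000092969.12; GRCh38, chromosome 1, 218345336 to 218444619, plus strand) was lower in siTLN1. Its abundance was 178 and 185 CPM in the SCR libraries and 142 and 140 CPM in the siTLN1 libraries. Both siTLN1 libraries lay below both SCR libraries, and the libraries within each group were close together. By the group means its level was 77.6% of SCR. The log2 fold change in the fit, −0.37 (SE 0.09, 95% interval −0.56 to −0.17), had an edgeR adjusted p of 0.0233. The call was lost in 3 of the 4 fits that left out a library, and without the filter. Leaving out SCR library b gave an adjusted p of 0.108, leaving out siTLN1 library a 0.179, siTLN1 library b 0.127 and SCR library a 0.0348, and dropping the filter on low counts gave 0.0526, while the log2 fold change stayed between −0.39 and −0.34.

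Sequence around TGFB2 is shown because genes whose 3′ UTR holds the 7-base word GACAACA had lower fold changes in this contrast, from which the word itself was chosen. TGFB2 holds 1 copy in its 3′ UTR, in both of its coding transcripts, and TLN1 holds 1 copy in its coding sequence. Both are given 5′ to 3′ on the transcript strand (GENCODE 29, GRCh38), with the word in capitals.
TGFB2 3′ UTR, chr1:218441672-218441700, plus strand: atgtgaacaacGACAACAacaacaacaac
TLN1 coding sequence, chr9:35706026-35706054, minus strand: gtagaggacctGACAACAaccctcaacga
Counting outwards from the word, the unbroken run of bases that both copies share is 9 long. Of 12864 coding genes tested, 7.31% hold the word in the 3′ UTR. Their median log2 fold change was −0.10 and 16.8% were called lower, against 0.013 and 3.41% for genes without it there. The length of the 3′ UTR was not adjusted for in this comparison. The sequence of the siRNA is not given in the sources used here, and the part of the word in the TGFB2 value was not tested. Counting sets a second limit: 22.7% of the exon bases of TGFB2 also lie in exons of TGFB2-OT1 on the same strand, a gene with 0 counts in all 4 libraries. A further 2.13% lie opposite TGFB2-AS1.

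TGFB1 (ENSG00000105329.10; chromosome 19, 41301587 to 41353922, minus strand), the ligand with the highest level per kilobase, had 134 and 172 CPM in SCR and 137 and 144 CPM in siTLN1. Its SCR libraries differed more from each other than the group means did, and the groups overlapped. The log2 fold change was −0.13 with a 95% interval of −0.37 to 0.11 (edgeR adjusted p 0.600), and it was 0.066 without SCR library b. On the opposite strand, HNRNPUL1 shares 6.62% of the exon bases of TGFB1. TGFB3 (ENSG00000119699.7; chromosome 14, 75958099 to 75982991, minus strand), the third isoform, was the least abundant of the 10, with 89, 86, 76 and 102 raw counts in SCR a, SCR b, siTLN1 a and siTLN1 b. After scaling these were 2.80 and 2.47 CPM in SCR and 2.09 and 2.17 CPM in siTLN1, without overlap. Its log2 fold change of −0.30 had the widest 95% interval of the 10 genes, from −0.73 to 0.12 (edgeR adjusted p 0.445), which includes both no change and a change larger than that of TGFB2.

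**Figure D2:**
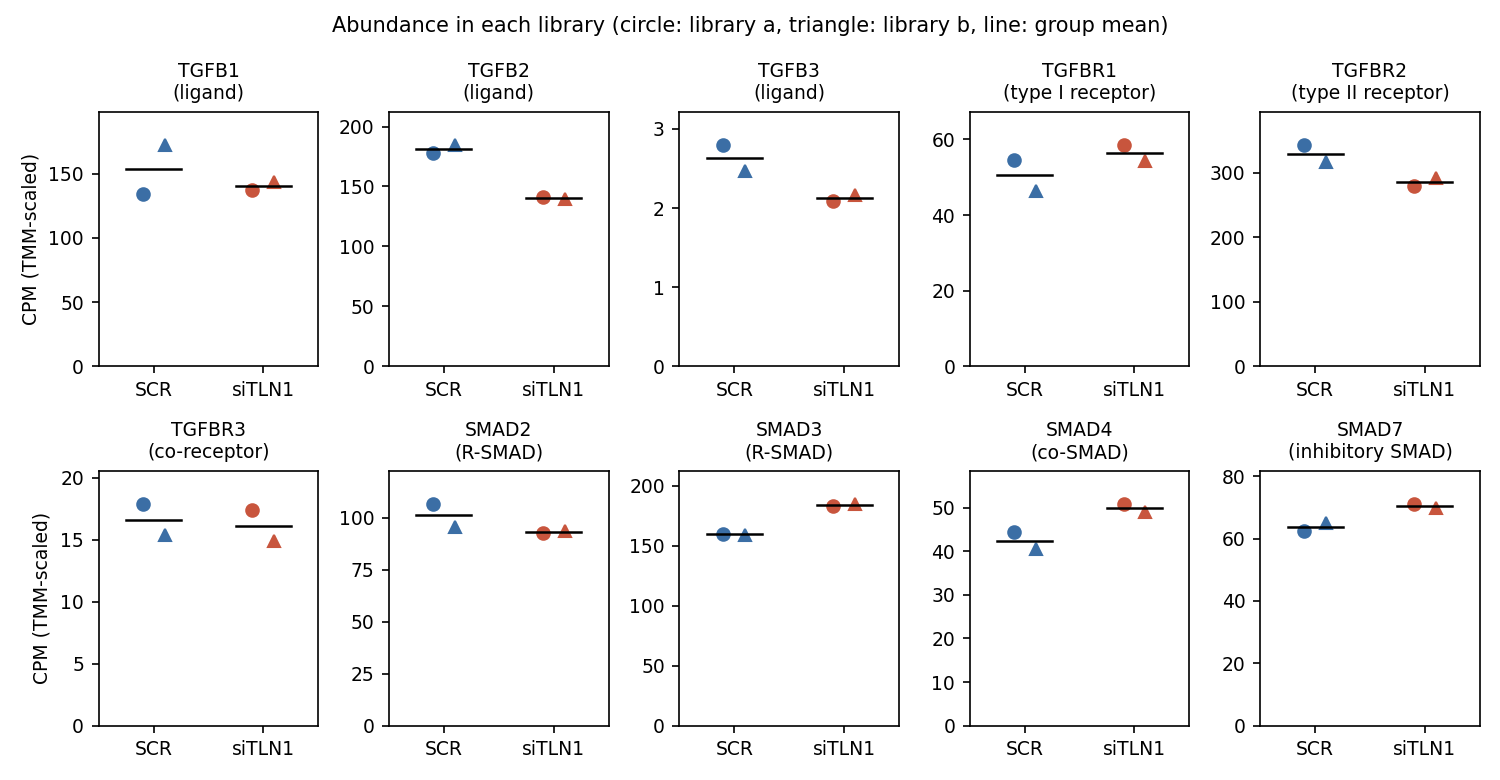
Abundance of each gene in CPM (vertical axes from 0, a separate scale for each gene) in the SCR and siTLN1 libraries, with lines at the group means. TGFB2 goes from 178 and 185 to 142 and 140 CPM, SMAD3 from 160 and 159 to 183 and 185 CPM, and the SCR libraries of TGFB1 lie far apart at 134 and 172 CPM.

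Among the receptors, none passed the threshold. TGFBR2 (ENSG00000163513.19; chromosome 3, 30606601 to 30694142, plus strand), the ligand-binding type II kinase, had 343 and 316 CPM in SCR and 280 and 291 CPM in siTLN1. Both siTLN1 libraries were below both SCR libraries. The log2 fold change was −0.21 with a 95% interval of −0.41 to −0.01, and the edgeR p of 0.0414 became 0.229 after adjustment over all genes. TGFBR2 lacks the word in its 3′ UTR but holds 2 copies in its coding sequence, and these share runs of 11 and 8 bases with the copy in TLN1. They are shown because TGFBR2 has the second lowest p among the genes lower in siTLN1 and the longest shared run, which 1 copy in SMAD2 equals.
TGFBR2 coding sequence, chr3:30644759-30644787, plus strand: tgatagtcactGACAACAacggtgcagtc
TGFBR2 coding sequence, chr3:30650428-30650456, plus strand: atgagtgcaatGACAACAtcatcttctca
What these copies contribute to the TGFBR2 value was not tested. No share over all genes was computed for copies in coding sequence or for the length of a shared run.

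TGFBR1 (ENSG00000106799.13; chromosome 9, 99104038 to 99154192, plus strand), the kinase that phosphorylates SMAD2 and SMAD3, had 54.6 and 46.4 CPM in SCR and 58.6 and 54.4 CPM in siTLN1. SCR library a was slightly above siTLN1 library b, so the groups overlapped. The log2 fold change was 0.16 with a 95% interval of −0.06 to 0.38 (edgeR adjusted p 0.426). TGFBR3 (ENSG00000069702.11; chromosome 1, 91680343 to 91906335, minus strand), the co-receptor, had 17.9 and 15.4 CPM in SCR and 17.4 and 14.9 CPM in siTLN1. In each group library a was the higher one, and the difference between libraries exceeded that between groups. Its log2 fold change was −0.04 with a 95% interval of −0.30 to 0.21 (edgeR adjusted p 0.894), and it ranged from −0.15 to 0.068 when 1 library was left out. No exon base of these 3 receptors is shared with another annotated gene.

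The SMADs that carry the signal did not pass the threshold either. SMAD3 (ENSG00000166949.16; chromosome 15, 67063763 to 67195169, plus strand), which binds DNA directly, had 160 and 159 CPM in SCR and 183 and 185 CPM in siTLN1. Replicates agreed closely and the groups did not overlap. The log2 fold change was 0.20 with a 95% interval of 0.02 to 0.39, and the edgeR p of 0.0358 was 0.209 after adjustment. SMAD2 (ENSG00000175387.16; chromosome 18, 47808957 to 47931146, minus strand), its partner receptor-regulated SMAD, had 106 and 95.5 CPM in SCR and 92.7 and 93.3 CPM in siTLN1. The siTLN1 libraries were just below the lower SCR library. Its log2 fold change was −0.12 with a 95% interval of −0.32 to 0.08 (edgeR adjusted p 0.541). The 3′ UTR of SMAD2, 32870 bases in the transcript with the longest coding sequence, holds 3 copies of the word. A longer 3′ UTR has more places for a 7-base word, and its length was not adjusted for. The one shown, which lies nearest the stop codon, has the longest run in common with TLN1 of these 3, 11 bases.
SMAD2 3′ UTR, chr18:47837623-47837651, minus strand: cctttctacctGACAACAcacatccaggt
Of its 10 coding transcripts, 3 hold a copy in the 3′ UTR, and counts per gene do not show how much of the SMAD2 RNA comes from them.

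SMAD4 (ENSG00000141646.14; chromosome 18, 51028394 to 51085045, plus strand), the common partner of the receptor-regulated SMADs, had 44.4 and 40.5 CPM in SCR and 50.9 and 49.0 CPM in siTLN1. Both siTLN1 libraries were above both SCR libraries. The log2 fold change was 0.24 with a 95% interval of 0.03 to 0.44, and the edgeR p of 0.0281 was 0.184 after adjustment. A gene without a symbol on the same strand shares 7.37% of the exon bases of SMAD4 and had at most 2 counts. SMAD7 (ENSG00000101665.9; chromosome 18, 48919853 to 48952052, minus strand), the inhibitory SMAD that pathway activity induces, had 62.4 and 65.0 CPM in SCR and 71.1 and 69.9 CPM in siTLN1. The groups did not overlap, with a log2 fold change of 0.15 and a 95% interval of −0.05 to 0.34 (edgeR adjusted p 0.419). SMAD7, higher in siTLN1, also holds the word, as 1 copy in its coding sequence with a run of 8 bases in common with TLN1. SMAD3, also higher, holds a copy in the 5′ UTR of a transcript that does not have the longest coding sequence. The run there is 7 bases, the word alone. For SMAD2, SMAD3, SMAD4 and SMAD7 the log2 fold change kept its sign in all 4 fits that left out 1 library.

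**Figure D3:**
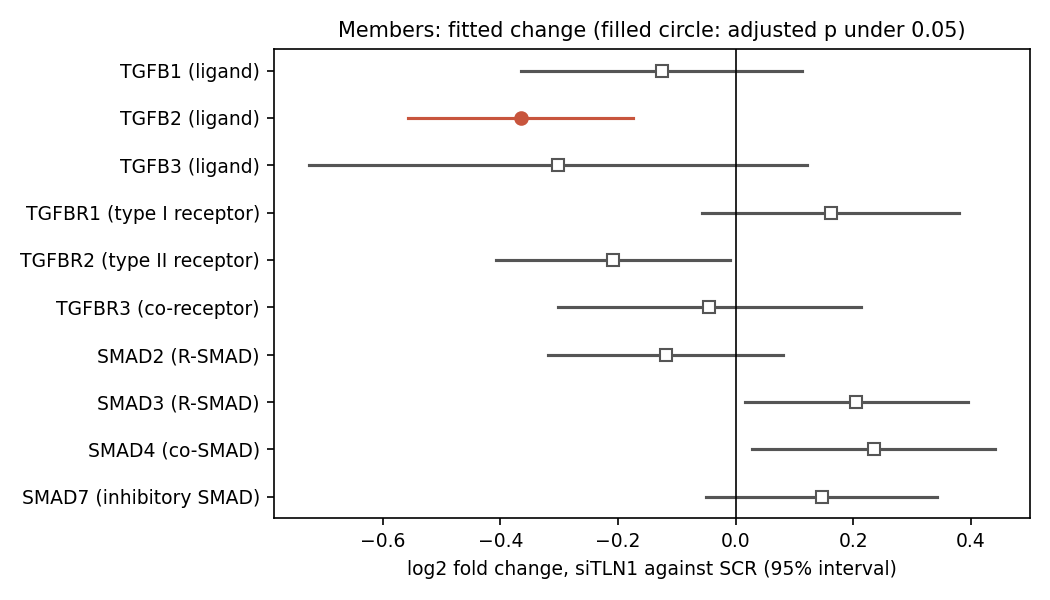
Fitted log2 fold change of each gene (siTLN1 against SCR, horizontal axis) with its 95% interval, and a filled circle where the adjusted p is under 0.05. Only TGFB2, at −0.37, is filled, and the intervals of TGFBR2, SMAD3 and SMAD4 stop just short of 0.

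Ratios of 2 genes within a library do not depend on how libraries are scaled. Chosen after the values were seen, 4 such ratios of raw counts were computed. SMAD3 to SMAD2 was 1.5 and 1.67 in SCR and 1.98 and 1.98 in siTLN1. SMAD4 to SMAD2 was 0.417 and 0.424 in SCR and 0.548 and 0.526 in siTLN1. Both ratios lay higher in the siTLN1 libraries, with SMAD2 as the shared denominator. TGFBR1 to TGFBR2 was 0.159 and 0.147 in SCR and 0.209 and 0.187 in siTLN1, and TGFB2 to TGFB1 was 1.32 and 1.07 in SCR and 1.03 and 0.971 in siTLN1. The exact two-sided permutation p was 0.333 for each, before and after adjustment over the 4, which is the smallest that 2 libraries against 2 allow.

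**Figure D4:**
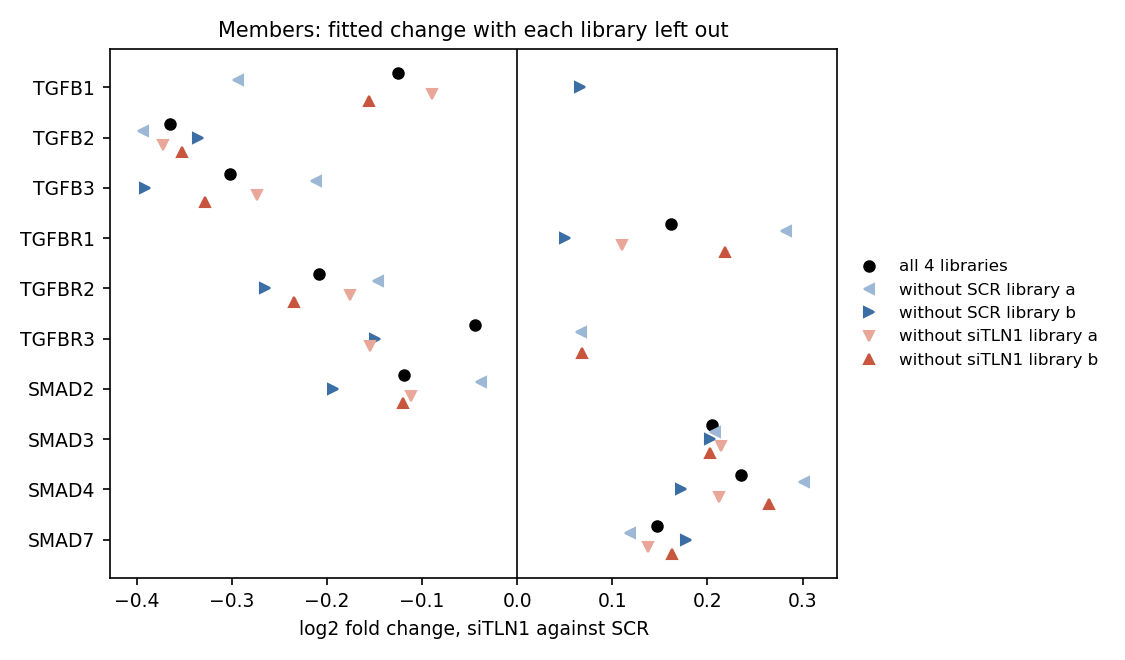
Fitted log2 fold change of each gene (horizontal axis) with all 4 libraries and with each library left out in turn. TGFB2 stays between −0.39 and −0.34, while TGFB1 moves from −0.29 without SCR library a to 0.066 without SCR library b.

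The 4 lists around the 10 genes were written from general knowledge, with earlier results of these data known. They held 72 other genes of the pathway, of which 69 were tested. The threshold was passed by 8 of them (11.6%, against 6.07% of all tested genes), with 6 higher and 2 lower. At an unadjusted p under 0.05 there were 7 of 19 tested genes of latency and activation, 7 of 14 of the activin arm, 3 of 15 co-receptors and adaptors and 4 of 21 regulators, against 19.8% of all genes. The list of latency and activation, with 20 genes of which 19 were tested, gave 4 called higher and 0 called lower. Over all tested genes 2.3% were called higher and 3.77% lower. The list's median log2 fold change was 0.15, against 0.0033 over all tested genes. It ran from 0.09 without siTLN1 library a to 0.21 without siTLN1 library b. LTBP2, a matrix protein of the latent TGF-beta binding family, had 142 and 153 CPM in SCR and 197 and 181 CPM in siTLN1, a log2 fold change of 0.35 (edgeR adjusted p 0.0335). PLAU, the urokinase protease, rose from 385 and 379 to 487 and 518 CPM (0.40, adjusted p 0.0188). FBN2, a fibrillin of matrix microfibrils, rose from 13.0 and 10.7 to 17.9 and 17.4 CPM (0.58, adjusted p 0.00909). ITGB8, whose product pairs with the alpha-v integrin to activate latent TGF-beta, went from 6.98 and 6.35 to 14.8 and 9.53 CPM (0.86, adjusted p 0.0191), and without siTLN1 library a its log2 fold change was 0.52. The siTLN1 libraries were above the SCR libraries for all 4, which adds little because these genes were named for being called higher. Over all tested genes, the libraries of the groups did not overlap for 48.4%. The most abundant genes of this list per kilobase were THBS1 and ITGB1, the beta-1 integrin subunit (0.15, edgeR adjusted p 0.514). THBS1 encodes thrombospondin-1, an activator of latent ligand. It had 2980 and 2501 CPM in SCR and 2269 and 1716 CPM in siTLN1 (−0.46, edgeR adjusted p 0.0708). THBS1 passed the threshold, as lower, with DESeq2 (adjusted p 0.0164) and with edgeR on total counts only (adjusted p 0.0124). It also passed with a replicate block in limma-trend (adjusted p 2.17e-08). The 0 called lower in this list therefore holds for the main fit and not for every setting.

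The list of other SMADs and the activin arm, which shares SMAD2 and SMAD3 with TGF-beta, held 15 genes, of which 14 were tested. In the main fit 2 were called higher and 1 lower (21.4%), against 2.3% higher and 3.77% lower over all tested genes. The list's median log2 fold change was 0.27, against 0.0033 over all tested genes. It ran from 0.15 without siTLN1 library a to 0.41 without siTLN1 library b. ACVR1B, the activin type I receptor, rose from 20.0 and 20.3 to 29.9 and 31.7 CPM. Its log2 fold change of 0.62 (SE 0.10) had the smallest adjusted p of the 4 lists, 0.00161 by edgeR, and passed in all 4 fits that left out a library. FST, which encodes the activin antagonist follistatin, rose from 68.2 and 71.2 to 98.0 and 92.5 CPM (0.45, adjusted p 0.00776). INHBB, an activin subunit, went from 38.2 and 40.6 to 32.5 and 24.1 CPM (−0.48, adjusted p 0.0431), with a log2 fold change of −0.27 and an adjusted p of 0.331 without siTLN1 library b. INHBA, the other activin subunit in the list and its most abundant gene per kilobase, had 548 and 482 CPM in SCR and 722 and 601 CPM in siTLN1 (0.36, edgeR adjusted p 0.0664). INHBA passed the threshold, as higher, with DESeq2 (adjusted p 0.0358) and with edgeR on total counts only (adjusted p 0.0288). It also passed with a replicate block in limma-trend (adjusted p 2.69e-06), but not with RLE scaling or limma-voom. The 2 called higher in this list are therefore those of the main fit and not of every setting.

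The calls in each list were few, and no list's share was tested against the 6.07% called over all tested genes. In the list of co-receptors and adaptors, 1 of 15 tested genes (6.67%) was called. It was CAV1, the caveolar coat protein linked to receptor turnover. CAV1 fell from 1526 and 1471 to 1145 and 1138 CPM (−0.39, edgeR adjusted p 0.0270). FKBP1A, which binds the type I receptor and is next to CAV1 in level per kilobase, stood at −0.13 (adjusted p 0.486), and the list's median was −0.055. Of 21 tested SMAD regulators and cofactors, edgeR called 0 and the median was 0.067. Of these genes, 4 had an unadjusted p under 0.05, a share close to that over all genes. DESeq2, limma-voom and limma-trend also called 0. With edgeR, 1 was called under RLE scaling, with total counts only, with a mean count of at least 10 and without siTLN1 library b, and the replicate block in limma-trend called 6. The most abundant of them per kilobase were XPO1, the nuclear exporter (0.24, adjusted p 0.177), and the splicing cofactor SNW1 (0.0087, adjusted p 0.977). The matrix genes FN1 (0.25, adjusted p 0.343) and POSTN (−0.02, adjusted p 0.961) were named as abundant pathway targets, of which no count is given.

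With 1 library left out, these calls were often lost, while the fold changes of the 8 called genes kept their direction. CAV1 and PLAU missed the threshold in all 4 such fits, with log2 fold changes of −0.42 to −0.37 and 0.35 to 0.44. LTBP2 missed it in 3 (0.30 to 0.41), and FBN2 in 2 (those lacking siTLN1 library a or SCR library b). FST and ITGB8 missed it without siTLN1 library a (adjusted p 0.122 and 0.176). With a library left out, the lone library of a group is assumed to vary like the other group. Without the filter on low counts, LTBP2 (adjusted p 0.0542) and INHBB (0.0689) missed the threshold. Of the 69 tested pathway genes, 6 hold the word in the 3′ UTR. Among the 6 called higher, FBN2 and ITGB8 hold it there, and of the 2 called lower neither does. Over all coding genes with the word there, 2.02% were called higher and 16.8% lower, in the same contrast from which the word was chosen. The part of the word in the values of the pathway genes was not tested.

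**Figure D5:**
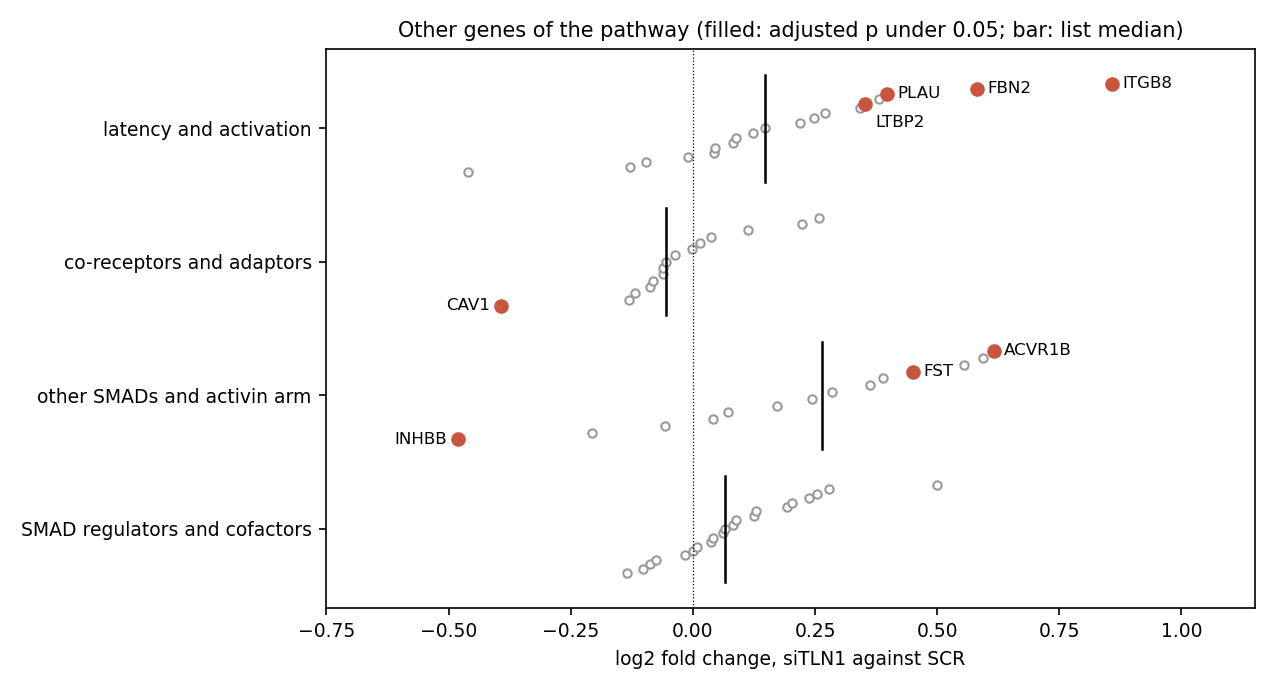
Log2 fold change (siTLN1 against SCR, horizontal axis) of the tested genes of the 4 lists, 1 point per gene, filled and named where the adjusted p is under 0.05, with a bar at each list's median. The 8 filled points run from −0.48 for INHBB to 0.86 for ITGB8, and the regulator list has none.

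By a rule of likeness over the 4 libraries (Euclidean distance of log2 CPM, each gene centred on its own mean), the genes nearest to TGFB2 among 10475 at a mean of at least 5 CPM were FRG1BP, COLGALT1 and CTSL, at distances of 0.0176, 0.0183 and 0.0224. COLGALT1 had 542 and 557 CPM in SCR and 433 and 427 CPM in siTLN1, and CTSL 258 and 270 CPM in SCR and 207 and 207 CPM in siTLN1. Within a distance of 0.1 lay 146 genes, so 4 libraries single out no small set.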

How the data were processed

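Libraries were made from polyadenylated RNA with a stranded kit, per the labels' protocols. Per the file headers, the authors deposited a raw count for each gene from featureCounts 2.0.0, run on GENCODE 33 for paired reads and without a strand option. The submitters' processing notes also name STAR 2.7.9a, edgeR 3.34.1 and the build GRCh38. A deposited table of log2 CPM carries the labels' replicate numbers, and the count columns name only the group. Exon lengths per gene, another column of the authors' count table in bases, gave CPM per kilobase. No column was left unmapped (0), and 0 entries named no gene.

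Genes passing filterByExpr (minimum count 10, minimum total 15) numbered 16137 of 60721, and 16085 of them have a symbol. The test of siTLN1 against SCR used edgeR 4.0.16 (R 4.3.3): TMM scaling, estimateDisp, robust glmQLFit, glmQLFTest and Benjamini-Hochberg adjustment over all tested genes, with a threshold of 0.05. Standard errors and 95% intervals follow from that fit. SDs are over 2 libraries. The common biological coefficient of variation of the fit was 0.0805. The limits set by library number and by depth were not compared. The procedure was tested on simulated data.

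Without strand, reads in exons shared by overlapping genes cannot be assigned. Words were searched on the transcript strand of GENCODE 29 coding transcripts, 1 per gene with the longest coding sequence. For the 10 genes and TLN1, copies were listed from all coding transcripts. The members, lists, word and tests were chosen with earlier results of these data known. Of a list of target genes 1 gene is not reported here, so that list enters no count, median or figure. Named are the 10 genes, TLN1, and from each list up to 6 called genes with the smallest p and the 2 with the highest level per kilobase, then the 3 genes nearest to the member with the smallest p. Alternatives were other scalings and filters, DESeq2 1.42.0, limma 3.58.1 (voom, and trend on the deposited values, with and without a replicate block) and each library left out.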

Additional observations from a re-analysis of the deposited data

How the results depend on the processing

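With all 4 libraries and no replicate term, the direction of all 10 genes held under RLE scaling, total counts, both filters, DESeq2, limma-voom and limma-trend, and 69 of 70 such values kept their side of the threshold. The exception was TGFB2 with no filter on low counts, which left 0 of the 10 genes called, where more genes enter the adjustment. Its adjusted p over these settings ran from 0.00715 with DESeq2 to 0.0526. With 1 library left out, 0 to 1 of the 10 genes were called. Then TGFB1 ranged from −0.29 to 0.066, TGFBR3 from −0.15 to 0.068, POSTN from −0.18 to 0.14 and SNW1 from −0.0012 to 0.025 in log2 fold change. The 8 pathway genes called became 13 with total counts only, 11 with DESeq2, 6 with no filter on low counts, and 3 to 10 with 1 library left out (3 without siTLN1 library a); the cause was not tested. Over all genes, 980 were called in the main fit, 1253 with total counts only, 847 with DESeq2 and 663 with no filter on low counts. Calls over all genes also fell without siTLN1 library a, so that drop was not particular to the pathway genes. The label replicate numbers were checked for pairing. Numbers in the count header also recur in both groups, but the sources used here do not give their meaning. Differences between replicates 1 and 2 correlated across genes between the groups at 0.19 over all tested genes and 0.54 over 10487 genes at 5 CPM or more, but no label states a shared preparation and 2 pairs are too few to establish one. With the replicate block, limma-trend on the deposited values called 4 of the 10 genes, TGFB2, TGFBR2, SMAD3 and SMAD4 (adjusted p 1.29e-06, 0.00795, 0.00821 and 0.00597), 28 pathway genes, and 22.6% of all genes. TGFB3, at 76 to 102 counts per library, had the lowest depth and the widest interval of the 10 genes.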
